A study of Mus musculus with 6 samples.

Results

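Transcripts of 37 Polycomb, trithorax-type and other histone lysine enzyme genes were measured in blood-forming cells that had just appeared in the mouse embryo. The genes were taken from a list of subunits of the Polycomb repressive complexes, of their counterparts that mark active chromatin and of related enzymes. All 37 were found among 47517 annotated gene symbols, and all 37 were above 0 TPM in every library. TPM is the depositors' name for the signal, and it usually means an abundance scaled for transcript length and library size. Here the annotated genes summed to 555230 to 684549 in a library and not to a shared total. The cells came from C57BL/6 embryos with an Hlf-tdTomato knock-in, in which a red fluorescent protein reports the Hlf locus of blood stem and progenitor cells. All embryos were at embryonic day 10.5, and both groups carried the knock-in. The sort kept cells with the reporter and c-Kit, a receptor of blood progenitors, and without CD45, a surface protein of most later blood cells. There were 3 caudal-half libraries (caudal cells below) and 3 yolk sac libraries, each made from 100 cells. Tissues had been digested with collagenase (0.125%, 37 °C, 1 h). Whether the replicates of a tissue came from different embryos is not stated, and the p-values cover only the variation among the libraries, which may be technical.

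Polycomb proteins keep genes silent through 2 kinds of complex. Polycomb repressive complex 2 (PRC2) methylates lysine 27 of histone H3, with Ezh1 or Ezh2 as the enzyme. Polycomb repressive complex 1 (PRC1) places ubiquitin on histone H2A through Ring1 or Rnf2 (also known as Ring1b), and its Pcgf, Cbx and Phc subunits decide which form of the complex is built. Trithorax-type proteins act on the other side: the COMPASS enzymes methylate lysine 4 of histone H3, a mark of active promoters. Ezh2 is associated with dividing cells and Ezh1 with resting ones, and in blood Bmi1 is known for stem cell self-renewal.

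Promoter sequences were compared because the paralogs Ezh2 and Ezh1 differed in level in every library (values below). Of the 37 genes, 30 were matched by symbol to RefSeq promoters (GRCm38.p6), with 38 windows of 250 bases before to 50 bases after a start site. The windows of these genes held a median of 24 CpG dinucleotides, against 21 over 11170 windows of tested genes and 7 over all 32851 windows. At least 15 CpG were present in 81.6% of their windows, 68.6% of those of tested genes and 34.6% of all. An E2F-type motif (TTTGGCGC, TTTCCCGC, TTTGCCGC or TTTCGCGC, either strand) was present in 3 windows, those of Ezh2, Suz12 and Phf19, which is 7.9% of 38, against 4.2% of the windows of tested genes and 2.3% of all. Of the other motifs searched on both strands, the ETS-type CCGGAAG was in 10.5% of the windows of these genes and 18.3% of those of tested genes (8.9% of all). TATAAA was in 2.6% and 6.9% (13.6% of all), and an NRF1-type motif in 2.6% and 2.1% (1.0% of all). The next lines show 250 bases before and 20 bases after the start of Ezh2, its paralog Ezh1, and the other PRC2 genes with the motif, 5′ to 3′ on the strand of the gene, with the match in capitals.
Ezh2 (chr6:47595011-47595280, minus strand): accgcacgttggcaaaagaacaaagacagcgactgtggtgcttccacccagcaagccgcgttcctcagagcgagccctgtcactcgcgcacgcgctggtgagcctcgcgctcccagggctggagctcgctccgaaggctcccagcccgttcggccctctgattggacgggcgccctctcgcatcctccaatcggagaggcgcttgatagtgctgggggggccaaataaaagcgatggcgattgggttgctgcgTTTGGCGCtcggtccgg
Ezh1 (chr11:101226444-101226713, minus strand): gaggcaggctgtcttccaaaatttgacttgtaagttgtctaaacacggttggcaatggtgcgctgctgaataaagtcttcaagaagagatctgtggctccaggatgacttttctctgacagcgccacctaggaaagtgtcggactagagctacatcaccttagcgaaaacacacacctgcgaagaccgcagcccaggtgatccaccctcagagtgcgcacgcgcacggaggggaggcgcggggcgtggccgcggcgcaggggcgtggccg
Suz12 (chr11:79992856-79993125, plus strand): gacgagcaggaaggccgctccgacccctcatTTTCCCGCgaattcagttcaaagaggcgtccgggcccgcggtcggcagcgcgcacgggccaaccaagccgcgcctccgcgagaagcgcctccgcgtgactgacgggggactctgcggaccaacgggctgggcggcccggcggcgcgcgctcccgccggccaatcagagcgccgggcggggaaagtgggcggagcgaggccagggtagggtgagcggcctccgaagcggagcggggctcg
Phf19 (chr2:34913957-34914226, minus strand): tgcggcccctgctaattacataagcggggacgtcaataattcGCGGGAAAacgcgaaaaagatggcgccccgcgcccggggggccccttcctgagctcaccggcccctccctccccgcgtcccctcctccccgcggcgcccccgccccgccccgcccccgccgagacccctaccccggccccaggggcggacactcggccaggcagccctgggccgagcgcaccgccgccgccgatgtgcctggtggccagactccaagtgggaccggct
In Ezh2 the match began at base 4 of the transcript, counted from the RefSeq start. It began 219 bases before the start in Suz12 and 208 bases before it in Phf19, where it lay on the opposite strand (GCGGGAAA is TTTCCCGC read in reverse complement). The start depends on the annotation. The printed Ezh2 window lies wholly within the GENCODE span of that gene (47530139 to 47595341), while the Ezh1 window reaches beyond the end of its span (101226463). Ezh2 and Suz12 were at high levels and Phf19 was at about 1 TPM, so genes with the motif lay at both ends of the range of levels. A match is a description of the letters and not evidence of binding, and the absence of a match in Ezh1 says only that these letters are not in this window.

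The 6 libraries had 15644 to 16975 genes at 1 TPM or more, and the sequencing depth is not known because TPM keeps none. Hlf, the reporter locus, was at 27.0 to 44.5 TPM in the caudal cells and 8.95 to 17.6 TPM in the yolk sac, Kit at 105.4 to 158.8 and 42.2 to 98.9 TPM, and Ptprc, which encodes CD45, at 2.31 to 4.72 TPM over all. Of 12 genes listed for the sorted cells, Ptprc among them, 7 were higher in every caudal than in every yolk sac library. That share was 11.5% over all genes tested. Of the 12 genes, 2 passed the limma test described below as higher in the caudal cells, against 0.347% of all genes tested. Gfi1, a transcription factor of blood stem cells, averaged 23.1 ± 5.63 TPM in the caudal cells and 1.82 ± 0.81 TPM in the yolk sac (SD, n = 3 each, limma adjusted p = 0.0114). Cdh5, the cadherin of endothelial cells, averaged 97.6 ± 12.8 and 16.6 ± 5.43 TPM (SD, n = 3 each, limma adjusted p = 0.0114). The part of this difference between the sorted populations in the tissue comparisons of the 37 genes was not tested. Transcripts of yolk sac endoderm were abundant in yolk sac replicates 1 and 2. All 20 genes of that list reached 1 TPM in these 2 libraries, against 1 or 2 genes in each of the others, and they summed to 889 and 15230 TPM, against 15.6 TPM in yolk sac replicate 3 and 23.2 to 33.1 TPM in the caudal cells. Afp was listed at 0 in caudal replicate 1 and Ttr in caudal replicate 2. Red cell genes summed to 1608 TPM in yolk sac replicate 2 and to 6.61 to 19.2 TPM elsewhere. Macrophage genes summed to 54.0 to 69.3 TPM in the caudal cells and 43.6 to 69.9 TPM in the yolk sac, and mesenchyme genes to 4.22 to 10.3 TPM over all. Of 10 macrophage genes 4 were tested, and 1 passed as higher in the yolk sac, against 0.0365% of all genes tested. This was Mrc1, a receptor of macrophages and of some endothelial cells. Its level was 0.12 to 0.24 TPM in the caudal cells and 2.53 to 3.12 TPM in the yolk sac (limma adjusted p = 0.0192). Mrc1 entered the test through the yolk sac libraries alone, so nothing is read from its passing. In such samples fewer cells of a type and less RNA per cell cannot be told apart.

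PRC2 core subunits were among the most abundant of the 37 genes, with the exception of Ezh1. Rbbp7 and Rbbp4, histone chaperones that PRC2 shares with other complexes, ranked first and second of the 37. Rbbp7 was at 121.9, 111.9 and 102.5 TPM in caudal replicates 1 to 3 and 137.5, 182.6 and 119.2 TPM in yolk sac replicates 1 to 3. Rbbp4 was at 120.3, 60.1 and 97.4 TPM in the caudal cells and 104.9, 72.6 and 95.8 TPM in the yolk sac. Their means over all libraries lay at the 97.5 and 96.0 percentile of 16436 genes tested below. Gm6382, a gene model whose transcript matches Rbbp7 at 95% identity or more, averaged 19.4 TPM, so that reads of the pair may have been split.

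Ezh2, the methyltransferase of dividing cells, was at 42.3, 50.8 and 36.6 TPM in the caudal cells and 39.1, 50.4 and 49.2 TPM in the yolk sac. Ezh1, its paralog, was at 7.59, 6.85 and 6.46 TPM in the caudal cells and 6.95, 6.76 and 7.83 TPM in the yolk sac. Both ranges overlapped between the tissues, and the highest Ezh1 value was far below the lowest Ezh2 value. Ezh1 varied little, with a within-tissue SD of 0.10 on the log2(TPM + 1) scale, against a median of 0.26 over the 35 tested members. Suz12, the subunit that holds the complex together, was at 39.7, 34.2 and 33.2 TPM in the caudal cells and 37.6, 38.3 and 42.0 TPM in the yolk sac. Eed, which reads the methyl mark, was at 42.9, 25.2 and 28.3 TPM and 27.5, 35.5 and 22.5 TPM. Ezh2 lies on chromosome 6 (47530139 to 47595341, GRCm38) and Ezh1 on chromosome 11 (101191115 to 101226463).

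Accessory subunits of PRC2 were split between abundant and scarce genes. Jarid2, which recruits the complex to its targets, was at 58.9, 44.0 and 54.3 TPM in the caudal cells and 30.6, 24.9 and 30.9 TPM in the yolk sac. Every caudal library was above every yolk sac library. Mtf2, a Polycomb-like protein that binds CpG-rich DNA, was at 33.6, 59.4 and 30.4 TPM in the caudal cells and 33.5, 33.5 and 42.3 TPM in the yolk sac. Its caudal replicate 2 was the highest of the 6. The other Polycomb-like genes were near the lower end, Phf1 at 0.66 to 1.67 TPM and Phf19 at 0.91 to 1.79 TPM. Exons of Phf1 share 39.3% of their bases with Cuta, which averaged 48.9 TPM, and the use of strand in the counting is not stated, so the low value of Phf1 is uncertain.

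**Figure D1:**
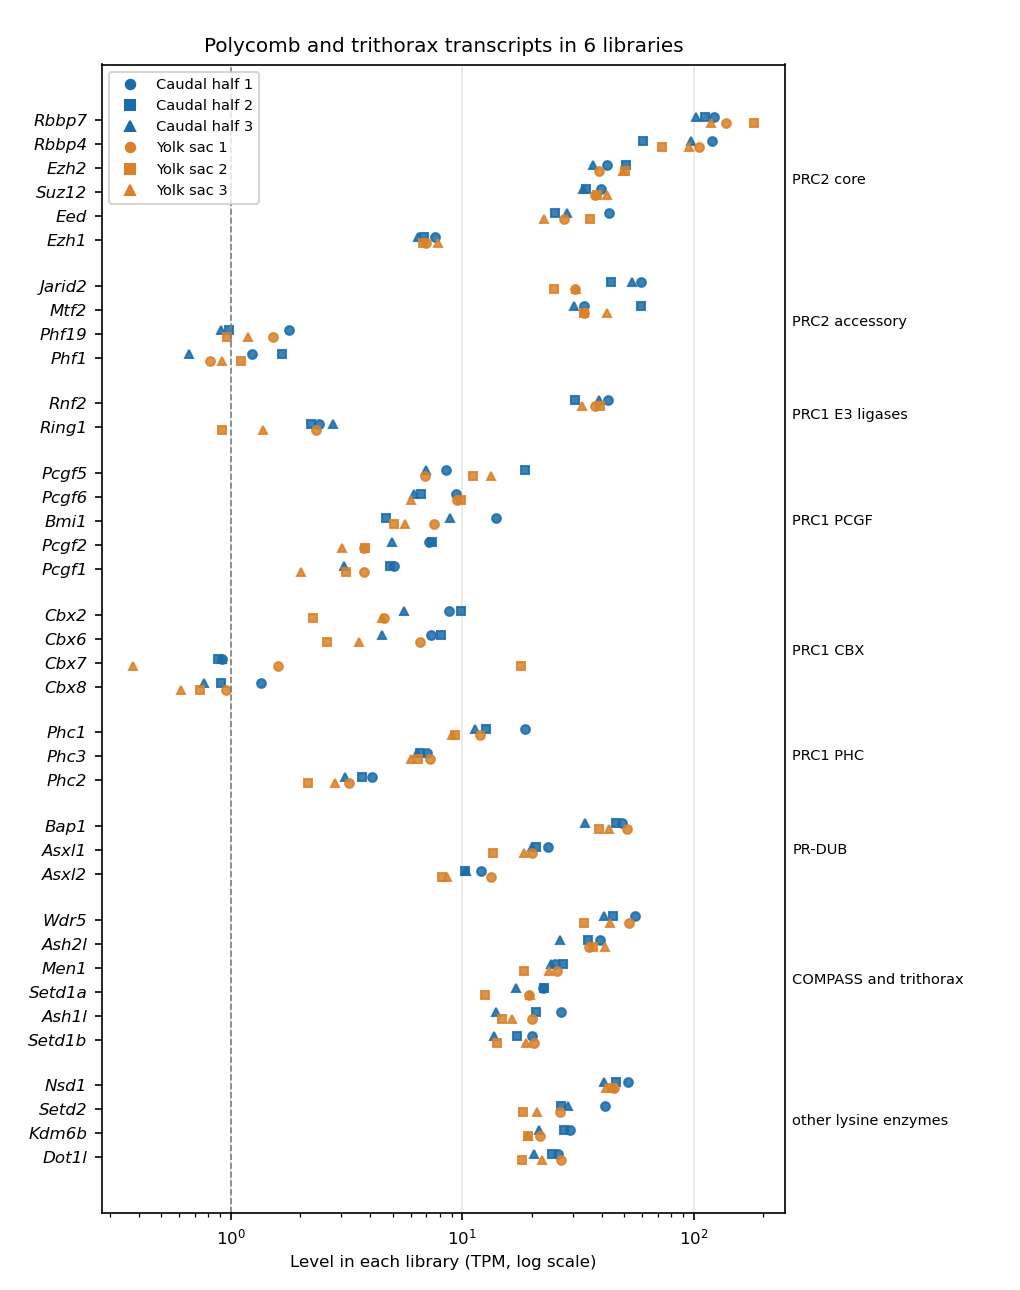
Level of each of the 37 genes in TPM (log axis) in the 6 libraries, ordered by complex and, within a complex, by mean level; circles, squares and triangles are replicates 1, 2 and 3 and the dashed line is 1 TPM. Rbbp7 and Rbbp4 lie highest, Ezh1 lies below the other PRC2 core genes, and Cbx7 lies at 18.0 TPM in yolk sac replicate 2 and at 0.38 to 1.60 TPM elsewhere.

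PRC1 genes were lower as a group, apart from Rnf2. Rnf2, the main ubiquitin ligase of PRC1, was at 42.6, 30.8 and 39.1 TPM in the caudal cells and 37.5, 39.5 and 33.0 TPM in the yolk sac. Ring1, its paralog, was at 2.39, 2.21 and 2.76 TPM and 2.33, 0.92 and 1.38 TPM. Rnf2 made up 93.3% to 97.7% of their sum in each library, and the yolk sac values of Ring1 reached from below to within the caudal range.

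Among the Pcgf genes, whose products pair with the ligase and define the PRC1 variant, no single member dominated in all libraries. Pcgf5 was at 8.51, 18.6 and 6.99 TPM in the caudal cells and 6.90, 11.1 and 13.3 TPM in the yolk sac. Bmi1 (Pcgf4) was at 14.04, 4.68 and 8.81 TPM and 7.55, 5.06 and 5.63 TPM. Both varied widely between replicates of a tissue, with within-tissue SDs of 0.58 and 0.53, the largest of the tested members. Pcgf2 (Mel18), the paralog of Bmi1 in canonical PRC1, was at 7.20, 7.43 and 4.99 TPM in the caudal cells and 3.78, 3.80 and 3.02 TPM in the yolk sac, with no overlap. Its share of the summed TPM of the 5 Pcgf genes was 16.3% to 17.6% in the caudal libraries and 10.1% to 12.0% in the yolk sac. Pcgf6 was at 5.98 to 9.91 TPM and Pcgf1 at 2.01 to 5.07 TPM over the 6 libraries, and both overlapped between tissues. Pcgf3, which is outside the 37 genes and is named here to complete the family, averaged 14.98 ± 2.65 TPM in the caudal cells and 12.2 ± 1.42 TPM in the yolk sac (SD, n = 3 each).

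Cbx genes, whose chromodomain proteins bring canonical PRC1 to methylated histone H3, were scarce. Cbx2 was at 8.78, 9.86 and 5.61 TPM in the caudal cells and 4.61, 2.27 and 4.496 TPM in the yolk sac, again without overlap. Cbx6 was at 7.31, 8.11 and 4.49 TPM and 6.59, 2.61 and 3.57 TPM, and overlapped. Cbx8 stayed between 0.61 and 1.35 TPM.

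Cbx7 behaved unlike the other members in 1 library. It was at 0.92, 0.89 and 0.91 TPM in the caudal cells and 1.60, 17.95 and 0.38 TPM in the yolk sac. The high value was that of yolk sac replicate 2, where Cbx7 made up 76.2% of the summed TPM of the 4 Cbx genes, against 4.2% to 11.7% in the other 5 libraries. In the same library Cbx2 made up 9.6% of that sum, against 33.5% to 49.9% in the others. Yolk sac replicate 2 also held the highest endoderm sum (15230 TPM) and red cell sum (1608 TPM), and yolk sac replicate 1, with the next highest endoderm sum of 889 TPM, had the next highest Cbx7. The part of these cells in the Cbx7 value was not tested. Apobec3, which shares 1.5% of the exon bases of Cbx7, was at 17.96 TPM in that library and 28.0 to 39.7 TPM in the others. Cbx7 and Cbx8 did not reach 1 TPM in 3 libraries and were not tested between tissues.

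The polyhomeotic genes, which let PRC1 form larger assemblies, kept 1 order in all libraries. Phc1 was at 18.6, 12.6 and 11.3 TPM in the caudal cells and 11.9, 9.34 and 9.02 TPM in the yolk sac. Phc3 was at 6.02 to 7.22 TPM, with a within-tissue SD of 0.09, the smallest of the tested members. Phc2 was at 2.17 to 4.09 TPM. Phc3 made up 23.6% to 30.6% of the 3 genes' sum in the caudal cells and 32.3% to 35.9% in the yolk sac.

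**Figure D2:**
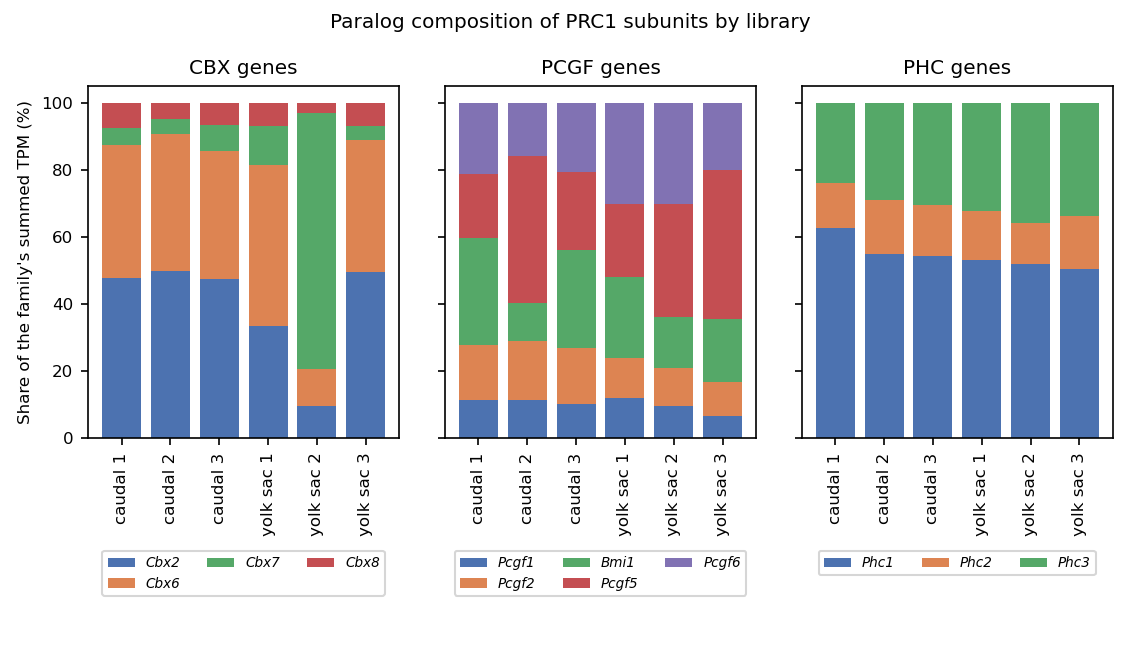
Share of the summed TPM of each PRC1 subunit family (vertical axis, percent) held by each listed gene in each library (family members outside the 37 genes are not included). Cbx7 makes up 76.2% of the CBX sum in yolk sac replicate 2 and 4.2% to 11.7% elsewhere, Bmi1 between 11.1% and 31.8% of the PCGF sum, and Phc1 between 50.5% and 62.6% of the PHC sum.

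The deubiquitinase that removes the PRC1 mark was led by its catalytic subunit. Bap1 was at 49.1, 45.9 and 34.0 TPM in the caudal cells and 51.7, 38.9 and 43.2 TPM in the yolk sac. Its partner Asxl1, a gene often mutated in blood cancers, was at 23.5, 20.8 and 20.1 TPM in the caudal cells and 19.98, 13.6 and 18.5 TPM in the yolk sac. The lowest caudal value of Asxl1 was barely above the highest yolk sac value. Asxl2 was at 8.19 to 13.3 TPM over the 6 libraries.

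COMPASS and trithorax-type genes were at intermediate to high levels, between 12.5 and 55.6 TPM in every library. Wdr5, a scaffold shared by the COMPASS enzymes, was at 55.6, 44.7 and 41.1 TPM in the caudal cells and 52.7, 33.5 and 43.5 TPM in the yolk sac. Ash2l, another shared subunit, was at 26.5 to 41.4 TPM, and Men1, which encodes menin, at 18.4 to 27.3 TPM. The enzymes Setd1a and Setd1b were at 12.5 to 22.5 and 13.7 to 20.5 TPM. Ash1l, which methylates lysine 36 of histone H3, was at 14.1 to 26.7 TPM. Each of the 6 genes overlapped between the tissues. Of the exon bases of Setd1a, 51.8% are shared with a gene model on the same strand, Gm49388, so the value of Setd1a is less certain. These data hold no level under the symbol Gm49388, so its part in the Setd1a value was not tested.

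The remaining lysine enzymes were at similar levels. Nsd1, a lysine 36 methyltransferase, was at 51.9, 46.3 and 40.9 TPM in the caudal cells and 45.4, 44.5 and 41.6 TPM in the yolk sac. Setd2, which trimethylates lysine 36 in transcribed genes, was at 41.2, 26.8 and 28.6 TPM in the caudal cells and 26.6, 18.4 and 20.9 TPM in the yolk sac. Setd2 did not overlap between tissues, but its lowest caudal and highest yolk sac values lay close together. Kdm6b, which removes lysine 27 methylation, was at 29.1, 27.6 and 21.5 TPM and 21.7, 19.3 and 19.3 TPM. Dot1l, the lysine 79 methyltransferase, was at 18.0 to 26.6 TPM.

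By mean level over the 6 libraries, 16 of the 37 genes were at 20 TPM or more, 7 between 10 and 20, 7 between 5 and 10, and 7 below 5 TPM. The median of their means was 18.8 TPM, against 8.06 TPM over all genes tested. Neighbours in this order often did not differ beyond their spread: Wdr5, Nsd1, Ezh2 and Bap1, ranks 3 to 6, had means of 45.2, 45.1, 44.7 and 43.8 TPM.

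Paralogs were compared within each library as the log2 ratio of (TPM + 1), for 14 pairs of genes with like functions. An exact two-sided sign-flip permutation test over the 6 libraries was used, whose smallest possible p is 0.0313, with Benjamini-Hochberg adjustment over the 14 pairs. In 9 pairs the ratio had the same sign in all 6 libraries, and each of these had the smallest p (sign-flip adjusted p = 0.0486). Any pair with 1 sign gets this value whatever the size of its ratio. The adjusted value also depends on how many such pairs the list holds, so it does not rank the pairs. Ezh2 exceeded Ezh1 by a mean log2 ratio of 2.49 ± 0.19 (SD, n = 6), and by 5.58 to 7.45 times in TPM. The Ezh2 to Ezh1 ratio was 2.46 ± 0.22 in the caudal cells and 2.52 ± 0.20 in the yolk sac (SD, n = 3 each), a difference smaller than either spread.

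The other large contrasts were those of a Polycomb-like gene and of the ligases. Mtf2 exceeded Phf1 by 4.25 ± 0.23 and Phf19 by 4.14 ± 0.46 (log2 ratio, SD, n = 6), and Rnf2 exceeded Ring1 by 3.70 ± 0.39. Cbx2 exceeded Cbx8 by 1.78 ± 0.54, Phc1 exceeded Phc2 by 1.63 ± 0.19 and Asxl1 exceeded Asxl2 by 0.83 ± 0.18. Phc2 was below Phc3, with a log2 ratio of -0.88 ± 0.21, and Rbbp4 was below Rbbp7, with -0.50 ± 0.51. The last of these came close to 0 in caudal replicates 1 and 3, at -0.02 and -0.07. Since 1 is added to each TPM, ratios with a gene near 1 TPM understate the contrast, and without that addition Mtf2 to Phf1 was 5.21.

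In 5 pairs the sign differed between libraries. Bmi1 exceeded Pcgf2 in 5 of 6 libraries, at 0.49 ± 0.55 (SD, n = 6, exact permutation adjusted p = 0.131), and caudal replicate 2 was the exception. Pcgf5 to Pcgf6 was 0.36 ± 0.69, Cbx2 to Cbx6 0.07 ± 0.30 and Setd1a to Setd1b 0.10 ± 0.21. Cbx2 to Cbx7 was positive in 5 libraries, at 1.11 to 2.53, and -2.54 in yolk sac replicate 2.

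**Figure D3:**
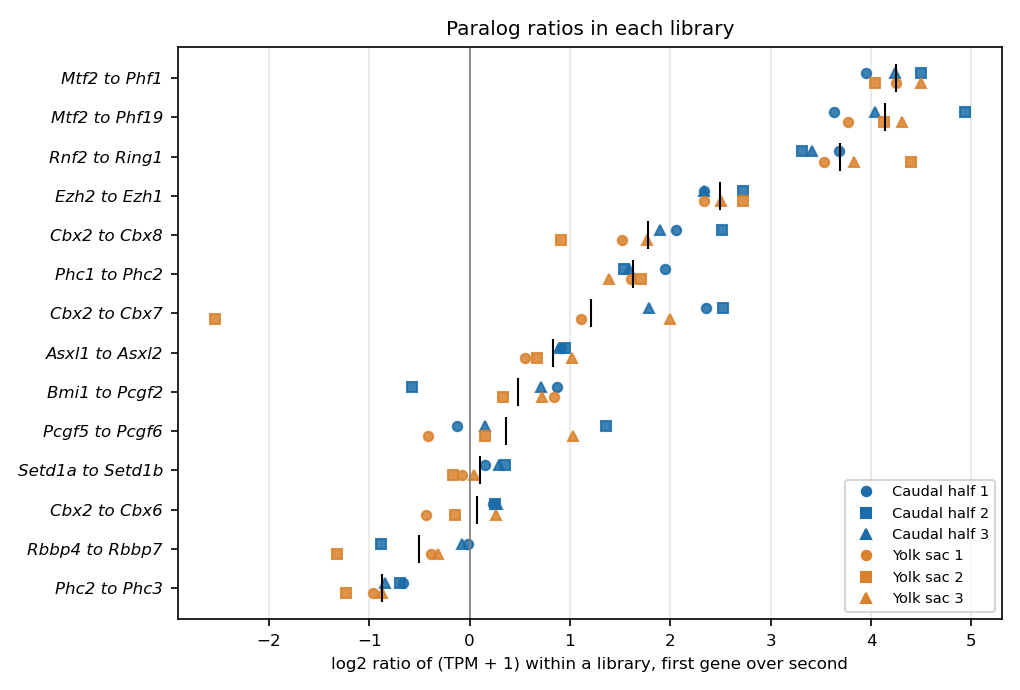
Within-library log2 ratio of (TPM + 1) for 14 pairs of paralogs (horizontal axis), 1 symbol per library, with the mean of the 6 as a black bar; 0 means equal levels. Ezh2 to Ezh1 lies between 2.33 and 2.73 in all 6 libraries, while Cbx2 to Cbx7 spans -2.54 to 2.53.

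The ratios were then compared between the tissues with an exact two-sided permutation test of 3 against 3 libraries, which cannot give a p below 0.1. In 3 of the 14 pairs the tissues did not overlap, each with exact p = 0.1 and an adjusted p of 0.467 over the 14 pairs. Setd1a to Setd1b was 0.27 ± 0.10 in the caudal cells and -0.07 ± 0.11 in the yolk sac. Phc2 to Phc3 was -0.73 ± 0.10 and -1.02 ± 0.19, and Cbx2 to Cbx8 was 2.16 ± 0.32 and 1.40 ± 0.44 (SD, n = 3 each). None of these passed, nor could any pair have passed at this size.

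The levels themselves were compared between caudal and yolk sac cells with limma on log2(TPM + 1), a linear model with moderated variances, fitted to the 16436 genes that reached 1 TPM in 3 libraries or more. Of the 37 genes 35 entered this fit and 0 passed at an adjusted p of 0.05. Over all genes 0.347% passed as higher in the caudal cells and 0.0365% as higher in the yolk sac. At an unadjusted p under 0.05 there were 3 of the 35, or 8.6%, against 9.63% of all genes tested, all 3 higher in the caudal cells.

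Jarid2, Cbx2 and Pcgf2 had those 3 smallest p-values. Jarid2 averaged 52.4 ± 7.63 TPM in the caudal cells and 28.8 ± 3.39 TPM in the yolk sac (SD, n = 3 each), which is 0.84 higher on the log2 scale (SE 0.19, limma adjusted p = 0.148). Cbx2 averaged 8.08 ± 2.21 and 3.79 ± 1.32 TPM, which is 0.93 higher (SE 0.31, limma adjusted p = 0.373). Pcgf2 averaged 6.54 ± 1.35 and 3.54 ± 0.44 TPM, which is 0.72 higher (SE 0.24, limma adjusted p = 0.377). These differences were positive in each alternative in which the gene was tested. Without yolk sac replicates 1 and 2, the libraries with endoderm transcripts, the differences were 0.73, 0.69 and 0.89. That fit leaves only yolk sac replicate 3 on the yolk sac side, so it has no spread there. With the endoderm level as a covariate they were 0.69, 0.56 and 0.85, and none passed. With array weights, which put weights of 4.44 and 3.24 on caudal replicate 2 and yolk sac replicate 3 and at most 0.83 on the others, all 3 passed, with limma adjusted p of 0.0371, 0.0282 and 0.0158. In that fit 4.71% of all genes passed as higher in the caudal cells.

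Setd2 and Asxl1 also showed no overlap, with log2 differences of 0.52 (SE 0.23, limma adjusted p = 0.524) and 0.30 (SE 0.21, limma adjusted p = 0.699). In all, 5 of the 35 tested members (14.3%) were higher in every caudal than in every yolk sac library, against 11.5% of all genes tested, and 0 were the other way round, against 4.14%. The share of members is near that of all genes. Exons of Asxl1 share 2.6% of their bases with 2500004C02Rik.

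Differences were positive for 25 of the 35 tested members and 62% of all genes, with a median of 0.14 against 0.09 over all genes. With each library centred on its median, 20 of 35 were positive and the median was 0.05. The median was also 0.07 without caudal replicate 1, 0.08 without yolk sac replicate 2, 0.22 without yolk sac replicate 1 and 0.225 without caudal replicate 3. Of the 6 PRC2 core genes 1 was positive (median -0.07), against 24 of 29 for the other members (median 0.18). The limma interval of every core gene included 0, so the signs are uncertain and these counts do not set the core apart. With median centring the counts were 1 of 6 and 19 of 29. Without caudal replicate 1 they were 0 of 6 and 21 of 29. Without caudal replicate 3 they were 3 of 6 and 26 of 29. Rbbp7 had the most negative difference, -0.36 (SE 0.19, limma adjusted p = 0.607). The difference between these sets of genes was not tested.

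Ezh2 and Ezh1 showed no difference between the tissues beyond their spread. The log2 difference of Ezh2 was -0.10, with a 95% interval of -0.54 to 0.35, and that of Ezh1 was -0.04, with an interval of -0.51 to 0.43 (limma adjusted p = 0.911 and 0.968). These intervals hold differences in either direction.

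**Figure D4:**
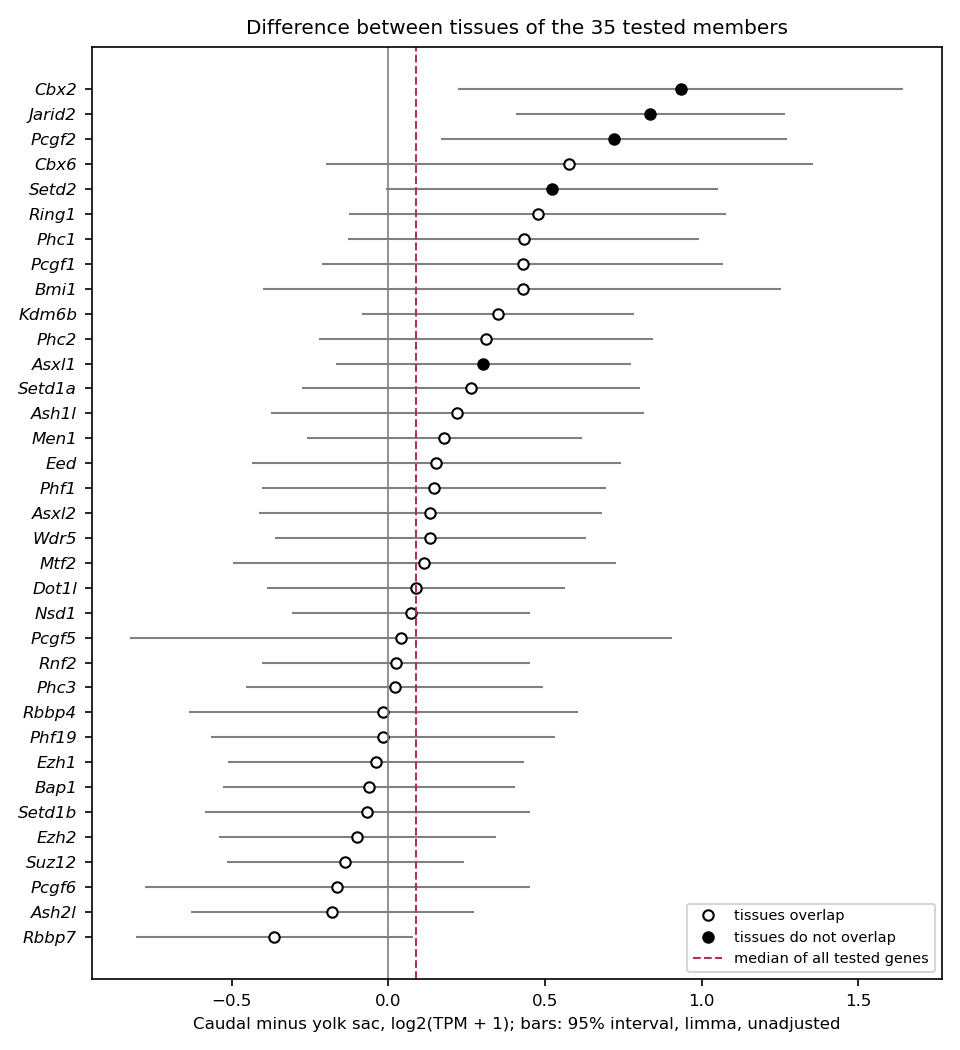
Difference in log2(TPM + 1) between tissues (horizontal axis, positive where the caudal mean is higher) for the 35 tested members, with unadjusted 95% intervals from limma; filled points are genes whose libraries do not overlap between tissues, and the dashed line is the median of all tested genes, 0.09. Only the intervals of Cbx2, Jarid2 and Pcgf2 do not include 0, and no gene passed after adjustment.

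No other gene of the same machinery passed limma over all genes. For the counts that follow, 62% of all genes tested were positive (median 0.09) and 9.63% had an unadjusted p under 0.05. Of 23 tested Polycomb genes outside the 37, 17 were positive (median 0.19) and 1 had an unadjusted p under 0.05. Of 16 COMPASS and trithorax genes 15 were positive (median 0.19), with 1 at that p. Of 19 genes of the SWI/SNF remodellers, known to counteract Polycomb, 15 were positive (median 0.22), with 3. Of 18 other lysine methyltransferases 12 were positive (median 0.07), with 1, and of 15 other demethylases 13 (median 0.24), with 1. Ehmt1, a lysine 9 methyltransferase, had the smallest p among the genes of these lists at 5 TPM or more, at 43.2 ± 7.80 TPM in the caudal cells and 22.1 ± 5.21 TPM in the yolk sac (SD, n = 3 each, limma adjusted p = 0.19).

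Of 13 known Polycomb target genes 5 reached the level needed for the test. By limma 0 of these passed, and 4 had an unadjusted p under 0.05, against 9.63% of all genes tested. From 5 to 6 of the 13 were at 1 TPM or more in each caudal library and 3 to 5 in each yolk sac library. A target gene could enter the test through the caudal libraries alone, so nothing is read from the count of 4. Hoxa9, a homeobox gene of blood progenitors, was at 20.2, 16.5 and 10.4 TPM in the caudal cells and 3.59, 1.30 and 4.53 TPM in the yolk sac (log2 difference 2.06, SE 0.38, limma adjusted p = 0.0818). Cdkn1c, which encodes a cell cycle inhibitor, was at 50.3, 38.4 and 36.3 TPM and 14.6, 71.3 and 6.68 TPM, with its highest value in yolk sac replicate 2. Of 15 cell cycle genes 0 passed limma and 1 had an unadjusted p under 0.05. Of the 15, 10 were positive (median 0.13), against 62% of all genes tested (median 0.09). Of the 15, 3 were higher in every yolk sac than in every caudal library (4.14% of all genes tested) and 0 the other way round (11.5%). Birc5, a gene of dividing cells, was at 22.4 to 28.0 TPM in the caudal cells and 34.7 to 40.9 TPM in the yolk sac (limma adjusted p = 0.391). Pcna had the next smallest p among those at 5 TPM or more and a higher caudal mean. It averaged 139.2 ± 10.07 and 106.0 ± 25.03 TPM, with overlap (SD, n = 3 each, limma adjusted p = 0.55).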

How the data were processed

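RNA sequencing libraries of 100 sorted cells were analysed, 3 caudal-half and 3 yolk sac. Reads were processed with HISAT2 and StringTie on mm10, per the submitters' processing notes. The sources used here give no version, annotation or strand setting. The authors deposited a signal for each gene and library, named TPM per the file headers. It is called a signal because assembled loci without a name alone summed to 1000000 in each library and annotated genes added 555230 to 684549. Only annotated genes were used, summed by symbol (47517 symbols, with the symbols of 27 gene IDs restored from dates). TPM keeps no depth, so no counting interval is given.

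Tissues were compared with limma 3.58.1 (R 4.3.3) on log2(TPM + 1), with a mean-variance trend, two-sided tests and Benjamini-Hochberg adjustment over 16436 genes that reached 1 TPM in 3 libraries or more. The fit was tested on simulated data with changes planted in the more abundant genes. It recovered 73% of 100 changes of 1 and 100% of 100 changes of 2 on the log2 scale, with 19 false calls. The simulation gave every library the same spread, while array weights of the real libraries ran from 0.227 to 4.44. Paralog ratios used exact permutation tests. Exon overlaps and coordinates are from GENCODE M21 (GRCm38); similar transcripts were matched at 95% identity over at least 300 bases. Alternatives changed the pseudocount (0.1, 5; 0 for ratios), the filter (none, mean of 10 TPM), the scaling, the weights, a replicate block and an endoderm covariate, or left out libraries. The members and lists were chosen with earlier results of these data known. All 37 members could be named. From the other lists, the rule took genes that passed or up to 3 with the smallest p and a mean of 5 TPM or more in the higher tissue; for lists of other cells the 3 most abundant were also eligible.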

Additional observations from a re-analysis of the deposited data

How the results depend on the processing

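The count of members passing limma was 0 with all libraries, in each fit that left out a library and in all other alternatives except array weights, where it was 3. With all libraries and the main settings, 3 members had an unadjusted p under 0.05. In the alternatives with 0 passing, that count ran from 1 (without caudal replicate 1) to 6 (without yolk sac replicate 1). The median difference of the tested members, 0.14, stayed positive in the 17 alternatives but moved by over 1.5 times in 5 of them: it was 0.045 with median centring, 0.067 without caudal replicate 1, 0.079 without yolk sac replicate 2, 0.218 without yolk sac replicate 1 and 0.225 without caudal replicate 3. The count over all genes, 63, was 39 with a pseudocount of 5, 0 without a filter (2547 at an unadjusted p under 0.05), 8 among genes averaging 10 TPM or more, 956 with array weights, 12 with endoderm level as a covariate and 13 without yolk sac replicates 1 and 2 together. Leaving out 1 library gave 2 (without caudal replicate 3) to 61 genes (without yolk sac replicate 2). With the replicate number as a block it was 0 (limma; 1611 genes at an unadjusted p under 0.05). Same-numbered libraries share only a number: their deviations from the tissue means correlated at -0.02 to 0.02. The Ezh1 difference, -0.04 with all libraries, ran from -0.094 to 0.018 when 1 library was left out, and was positive when caudal replicate 3 (0.008) or yolk sac replicate 3 (0.018) was absent. That of Ezh2, -0.10, ran from -0.217 to 0.013 (caudal replicate 3 absent) and was 0.032 with array weights. The count of paralog pairs with 1 sign in all libraries was 9 or 10 in its 9 alternatives. It could not fall below 9, because neither the pseudocount nor leaving out a library changes the sign of a remaining ratio. These alternatives are therefore no check of that count. Pairs whose ratios did not overlap between tissues, 3 with all libraries, were 2 with a pseudocount of 0.1, 5 with a pseudocount of 5 and 3 to 6 with 1 library left out, 6 without yolk sac replicate 3. Weakly expressed genes are imprecise with 100 cells in a library.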
